A study of Mus musculus with 2 samples.

Results

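The expression of 10 genes of vessel growth and oxygen sensing was examined in mouse calf muscle, namely the growth factor genes Vegfa, Vegfb, Vegfc and Pgf, the angiopoietin genes Angpt1 and Angpt2, the peptide gene Apln, the hypoxia factor genes Hif1a and Epas1, and the oxygen sensor gene Egln3. They were given as a list of gene names, and all 10 were found by symbol among the 55536 genes of the deposited gene tables. Total RNA was sequenced from the gastrocnemius, a calf muscle made mostly of fast fibres, of adult male mice aged 8 to 10 months. The source label gives the strain as 5xFAD/CAST and does not state how 5xFAD and CAST were combined. 5xFAD animals carry mutant human transgenes under the neuronal Thy1 promoter and serve as a model of amyloid deposition in the brain, and CAST is an inbred strain of castaneus origin. Both libraries belong to this 1 group, so each carries the same background and no wild type, other age or treatment stands beside them. They are labelled biological replicates 2 and 1, each with a biosample entry of its own but with 1 donor entry between them, and each started from 300 ng of RNA. The labels do not say whether these were different mice, so the spread between the libraries may be technical. The genome used for quantification was the mm10 reference, and the effect of CAST sequence differences on the counts of these genes was not tested.

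In mammals, the VEGF ligands act through receptor tyrosine kinases on endothelial cells, with VEGF-A as the main signal for blood vessel growth and VEGF-C for lymphatic vessels. Angiopoietin 1 activates the Tie2 receptor (the product of Tek) and steadies vessels, and angiopoietin 2 mostly opposes it. Hypoxia-inducible factors are made of an oxygen-labile alpha subunit (from Hif1a or Epas1) and a stable beta subunit (from Arnt). When oxygen is present, prolyl hydroxylases (from Egln1, Egln2 and Egln3) mark the alpha subunit for the ubiquitin ligase that contains the product of Vhl. Because this control acts on the protein, a transcript level of Hif1a or Epas1 does not report factor activity. Vegfa and Egln3 are themselves known targets of these factors.

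Splice forms gave the most specific view of which VEGF proteins the muscle transcripts encode, and the bases that separate them are shown first. In Vegfa (ENSMUSG00000023951.17, mm10 chromosome 17, 46016993 to 46032369, reverse strand) the forms differ by a 72-base exon at chr17:46022277-46022348 and a 132-base exon at chr17:46020991-46021122. Both exons encode basic stretches of the protein, which bind heparan sulphate and hold it near the cell surface and matrix. The 3 sequences run from the 30 bases of the exon before them to the last coding base before the stop codon, with the alternative exons in capitals.
Vegfa-207: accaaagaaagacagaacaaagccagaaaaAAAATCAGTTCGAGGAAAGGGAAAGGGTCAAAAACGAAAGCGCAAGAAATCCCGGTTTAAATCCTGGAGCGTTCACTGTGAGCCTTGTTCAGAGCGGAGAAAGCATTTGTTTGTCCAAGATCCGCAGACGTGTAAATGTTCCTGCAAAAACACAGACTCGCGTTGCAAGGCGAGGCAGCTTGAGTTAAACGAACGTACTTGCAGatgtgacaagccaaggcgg
Vegfa-202: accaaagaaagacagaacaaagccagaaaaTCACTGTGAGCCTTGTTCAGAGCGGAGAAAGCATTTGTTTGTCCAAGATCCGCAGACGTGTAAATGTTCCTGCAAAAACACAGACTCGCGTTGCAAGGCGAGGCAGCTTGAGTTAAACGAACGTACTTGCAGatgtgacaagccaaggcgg
Vegfa-201: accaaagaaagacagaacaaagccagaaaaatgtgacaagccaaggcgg
Vegfa-207 holds both exons (214 codons from the start codon that the forms share), Vegfa-202 the longer exon alone (190 codons) and Vegfa-201 neither (146 codons). The annotated coding sequences of Vegfa-207 (392 codons) and Vegfa-202 (368 codons) begin upstream of that shared start. Each alternative exon is a whole number of codons, 24 and 44, so the last 6 whole codons are read in the same frame in all 3.

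Vegfb (ENSMUSG00000024962.13, chromosome 19, 6982473 to 6987651, reverse strand) is spliced at a pair of acceptor sites instead. The sequences show the 36-base end of a shared exon joined to the next coding bases, with the 101 bases kept in Vegfb-201 alone, at chr19:6985496-6985596, in capitals.
Vegfb-202: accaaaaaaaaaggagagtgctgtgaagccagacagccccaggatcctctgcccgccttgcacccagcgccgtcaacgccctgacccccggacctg
Vegfb-201: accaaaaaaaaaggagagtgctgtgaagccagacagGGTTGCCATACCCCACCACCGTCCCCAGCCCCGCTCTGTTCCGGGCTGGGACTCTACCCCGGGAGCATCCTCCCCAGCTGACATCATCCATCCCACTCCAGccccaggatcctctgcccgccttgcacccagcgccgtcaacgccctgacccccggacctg
The 101 bases make 33 whole codons with 2 bases left over, so the 60 bases after them are read in another frame in Vegfb-201. The coding sequence of Vegfb-201 has 621 bases and that of Vegfb-202 has 564. As background, the shorter protein has a basic end that binds heparan sulphate, and the longer one is more freely soluble.

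**Figure D1:**
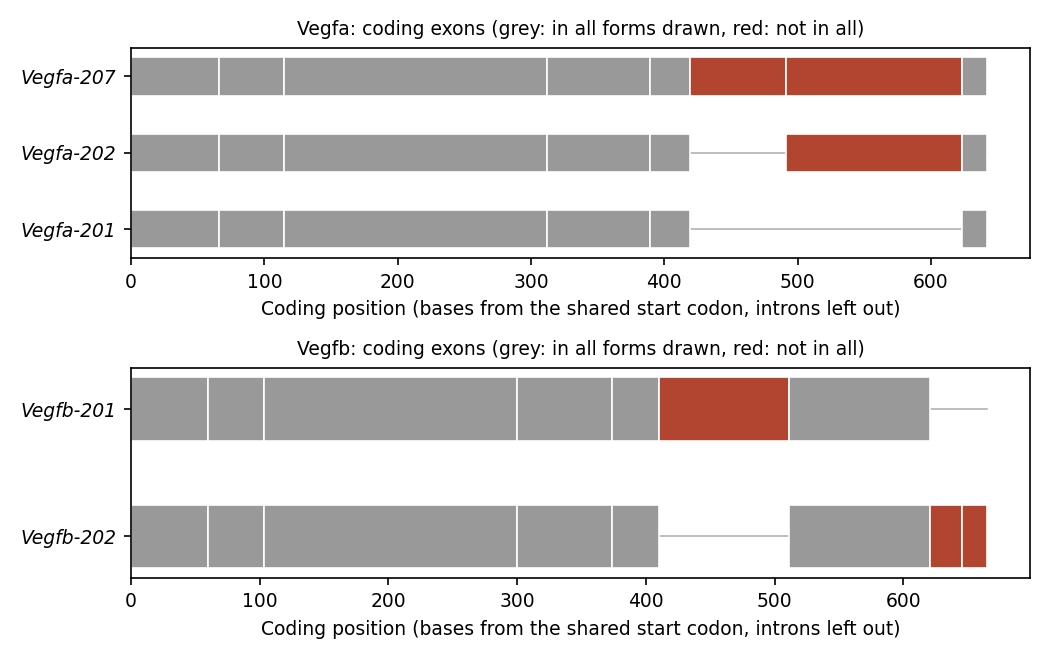
Coding exons of 3 Vegfa forms (top) and 2 Vegfb forms (bottom), drawn to scale in bases from the start codon each set shares, with introns left out. Red blocks are coding in some of the drawn forms and not in all: the 72-base and 132-base exons of Vegfa, and in Vegfb the 101 bases kept in Vegfb-201 and the last coding bases of Vegfb-202, which lie past the stop of Vegfb-201.

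The muscle expressed Vegfb, Vegfa and Epas1 at well above the level of the other 7 genes. Levels are deposited TPM, an abundance scaled by transcript length and library total, which allows genes to be set beside each other, and values with ± are the mean and SD over n = 2 libraries. Depth was similar, with 35580757 expected counts for replicate 2 and 35350142 for replicate 1, where 11240 and 11508 genes reached 1 TPM. Fast fibre genes were high in this tissue, with Myh4, the fastest myosin heavy chain, at 12925 TPM on average, against 223 TPM for the slow chain gene Myh7. Of the 10 genes, 6 reached 1 TPM in both libraries, as did 10964 of all 55536 genes. The count for the 10 genes was 7 when TPM was rescaled to nuclear protein-coding genes alone, which raised Vegfa to 101 and Vegfb to 172 TPM on average. The order by mean was Vegfb, Vegfa, Epas1, Egln3, Hif1a, Angpt1, Pgf, Vegfc, Angpt2 and Apln. Every neighbouring pair down to Angpt1 and Pgf had ranges that did not overlap, in both quantifications deposited. Pgf and Vegfc, Vegfc and Angpt2, and Angpt2 and Apln overlapped. The place of Vegfa above Epas1 rests on noncoding retained-intron transcripts, which held 33.9% of Vegfa TPM in replicate 2 and 27.6% in replicate 1. Vegfa coding transcripts alone lay below Epas1 in both libraries and both quantifications.

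**Figure D2:**
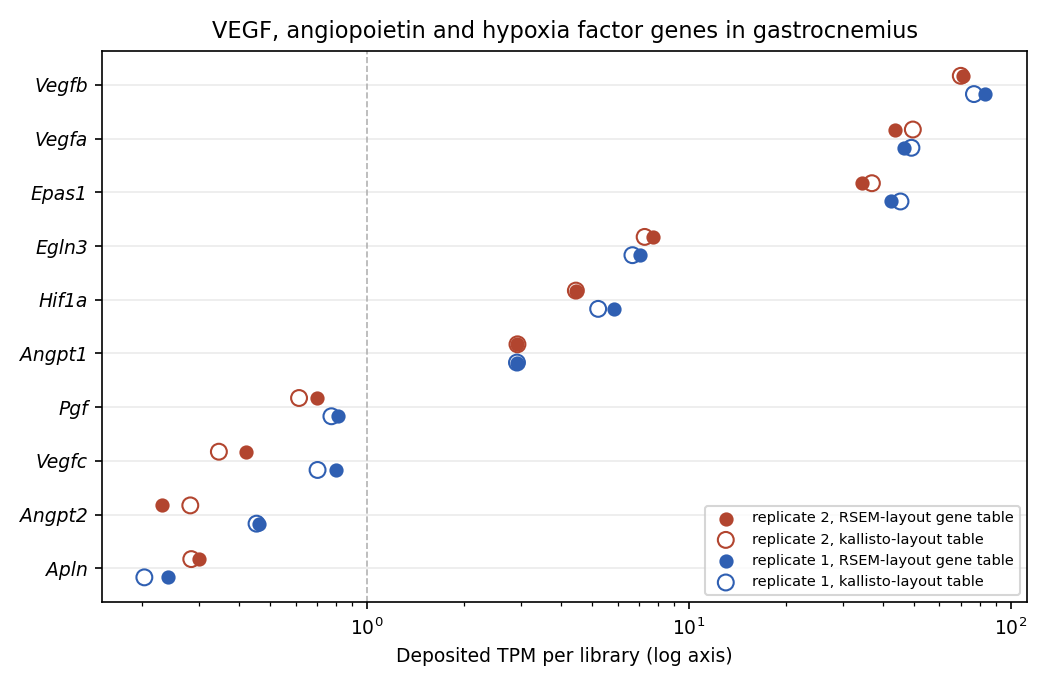
Deposited TPM (log axis) of each gene in replicate 2 (red, upper) and replicate 1 (blue, lower). Filled points are the gene table in RSEM layout and open points the kallisto-layout table summed per gene. Vegfb, Vegfa and Epas1 lie between 34.4 and 83.1 TPM in the gene table and the lowest 4 genes lie below 1 TPM (dashed line).

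Among the VEGF ligands, Vegfb led. This gene, whose product binds VEGF receptor 1 and is abundant in heart and oxidative tissues, had 70.9 TPM in replicate 2 and 83.1 TPM in replicate 1, on 2119 and 2353 expected counts. It ranked 694 of 22015 nuclear protein-coding genes. Vegfa, the main angiogenic ligand, had 43.6 TPM in replicate 2 and 46.6 TPM in replicate 1 (2571 and 2791 counts) and ranked 1194. Vegfa therefore stood below Vegfb in each library, with a TPM ratio of 0.614 in replicate 2 and 0.561 in replicate 1 (0.588 ± 0.0373). In the kallisto-layout table the ratio averaged 0.674, in the same direction. Both ratios count noncoding retained-intron transcripts, which in the RSEM-layout table held 33.9% of Vegfa TPM in replicate 2 and 27.6% in replicate 1. Vegfb-203, the retained-intron transcript of Vegfb, held 0.888% and 0.144% of Vegfb TPM. On coding transcripts alone, Vegfa stood further below Vegfb. By expected counts, which are not scaled by length, Vegfa stood above Vegfb instead.

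Vegfc and Pgf were near the limit of what these libraries resolve. Vegfc (ENSMUSG00000031520.6, chromosome 8, 54077606 to 54187096), the ligand of the lymphatic receptor VEGFR-3, had 0.42 TPM in replicate 2 and 0.80 TPM in replicate 1, from 27 and 48 counts. Pgf (ENSMUSG00000004791.7, chromosome 12, 85166635 to 85177790), placental growth factor, a ligand of VEGF receptor 1, had 0.70 TPM in replicate 2 and 0.81 TPM in replicate 1, from 28 and 27 counts. The TPM of Vegfa, noncoding transcripts included, was 59.9 ± 3.31 times that of Pgf and 81.0 ± 32.1 times that of Vegfc. The second ratio was 104 in replicate 2 and 58.3 in replicate 1. Vegfd, the other lymphatic ligand of the family, was higher than both at 1.22 and 1.34 TPM in replicates 2 and 1. Pgf-201 held all of the Pgf TPM in replicate 2 and 80.2% in replicate 1. The rest in replicate 1 was Pgf-203, a retained-intron transcript with 2.45 counts, and the kallisto-layout table instead gave 0.123 TPM in replicate 2 and 0.125 TPM in replicate 1 to Pgf-204, a longer coding transcript.

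Angpt1 exceeded Angpt2, its antagonist, in both libraries. Angpt1 (ENSMUSG00000022309.9, chromosome 15, 42424723 to 42676977) had 2.92 TPM in replicate 2 and 2.93 TPM in replicate 1, from 318 and 293 counts. Angpt2 (ENSMUSG00000031465.6, chromosome 8, 18690263 to 18741562) had 0.23 TPM in replicate 2 and 0.46 TPM in replicate 1, from 22 and 41 counts. The ratio of Angpt1 to Angpt2 was 12.7 in replicate 2 and 6.37 in replicate 1 (9.53 ± 4.47), so its size rests on few Angpt2 reads although its direction was shared. Angpt2 lies within the span of Mcph1 on the opposite strand, a gene with 118 counts in replicate 2 and 147 in replicate 1. The library kit keeps strand, per the labels' protocols, and the sources used here do not give the strand setting of the counting. Angpt4, a further Tie2 ligand, had 0.05 TPM in replicate 2 and 0.07 TPM in replicate 1.

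Apln (ENSMUSG00000037010.7, chromosome X, 48025146 to 48034853) encodes apelin, a peptide that endothelial tip cells and exercised muscle release. It was the lowest of the 10 genes, at 0.30 TPM in replicate 2 and 0.24 TPM in replicate 1, on 25 and 19 counts. Its receptor gene Aplnr was higher than the ligand gene, at 1.43 TPM in replicate 2 and 2.38 TPM in replicate 1. Apela, which encodes the second ligand of that receptor, was listed at 0 in both.

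Epas1 was the main hypoxia factor transcript. Epas1 (ENSMUSG00000024140.10, chromosome 17, 86753700 to 86833410), which encodes HIF-2 alpha and is prominent in endothelium, had 34.4 TPM in replicate 2 and 42.5 TPM in replicate 1, from 5053 and 5887 counts. Hif1a (ENSMUSG00000021109.13, chromosome 12, 73901375 to 73947530), which encodes the widely expressed HIF-1 alpha, had 4.47 TPM in replicate 2 and 5.83 TPM in replicate 1, from 543 and 624 counts. The ratio of Epas1 to Hif1a was 7.68 in replicate 2 and 7.29 in replicate 1 (7.49 ± 0.278), so the 2 genes lay much farther apart than the libraries did. In the kallisto-layout table it averaged 8.51. Hif3a, the third alpha gene, was lower still at 0.79 TPM in replicate 2 and 0.75 TPM in replicate 1. The beta subunit gene Arnt stood between Epas1 and Hif1a, at 17.0 TPM in replicate 2 and 20.9 TPM in replicate 1, and its relative Arnt2 at 0.37 and 0.36 TPM.

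Egln3 was the least abundant of the 3 prolyl hydroxylase genes. Egln3 (ENSMUSG00000035105.5, chromosome 12, 54178981 to 54203860) had 7.75 TPM in replicate 2 and 7.05 TPM in replicate 1, from 539 and 462 counts. Egln1, whose product is the principal oxygen sensor in most cells, had 74.7 TPM in replicate 2 and 82.5 TPM in replicate 1, and Egln2 had 51.4 and 52.9 TPM. Egln1 exceeded Egln3 by 10.7 ± 1.46 fold and Egln2 exceeded it by 7.07 ± 0.62 fold in TPM, in both libraries. Hif1an, the asparaginyl hydroxylase that blocks the transactivating end of the alpha subunits, was at 57.6 TPM in replicate 2 and 61.0 TPM in replicate 1. Vhl, the recognition subunit of the ligase, was at 1.96 and 3.23 TPM, below its adaptor genes Elob (182 and 179 TPM) and Eloc (64.9 and 68.7 TPM). The Vhl counts were closer, 143 in replicate 2 and 155 in replicate 1, and its kallisto-layout levels were higher, 3.27 and 4.97 TPM.

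**Figure D3:**
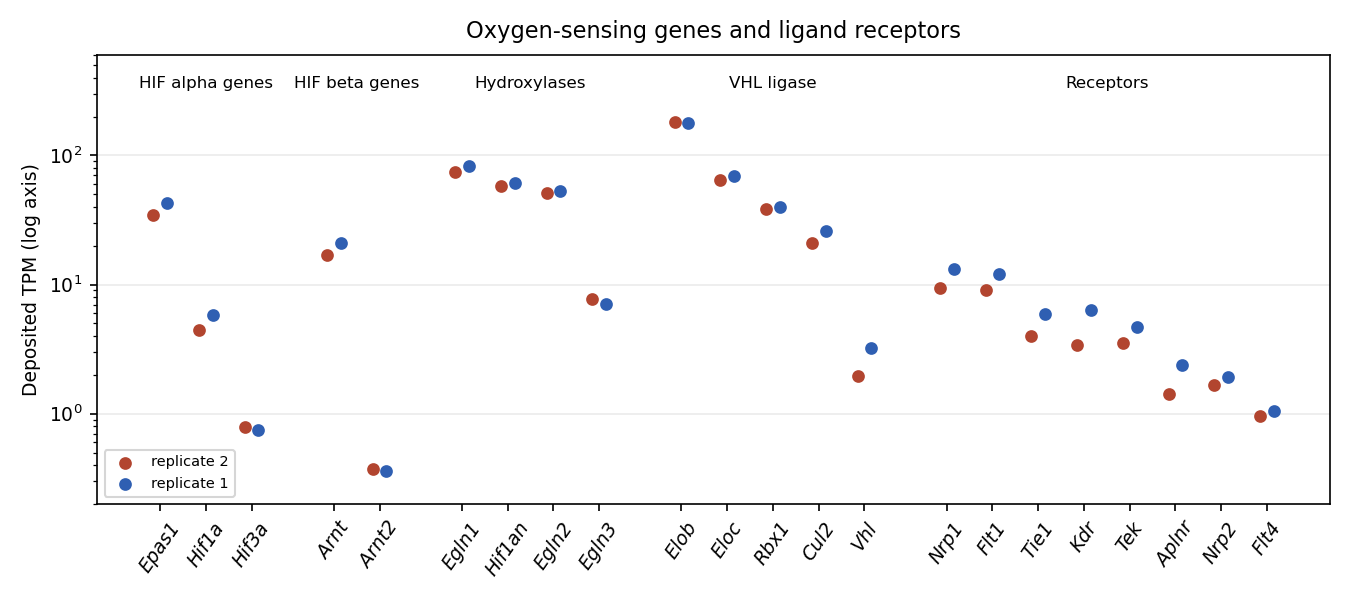
Deposited TPM (log axis) in replicate 2 (red, left of each pair) and replicate 1 (blue, right) for the hypoxia factor subunits, the hydroxylases, the VHL ligase and the ligand receptors. Epas1 lies above Hif1a and Egln1 above Egln3 in both libraries, and the points of all 8 receptor genes are lower for replicate 2.

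Among Vegfa coding transcripts, most TPM went to the class with the longer alternative exon alone, a heparan-binding form printed above as Vegfa-202. Within the 8 protein-coding transcripts, this class held 75.5% of TPM in replicate 2 and 72.5% in replicate 1. The class with both exons held 11.4% in replicate 2 and 14.2% in replicate 1. The class with neither exon held 10.8% in replicate 2 and 13.3% in replicate 1. In the kallisto-layout table the leading class was the same, with 74.0% in replicate 2 and 65.9% in replicate 1. The minor classes were not placed alike: the class with neither exon had 0.000752% in replicate 2 and 9.41% in replicate 1 there, and the class with the shorter exon alone had 15.3% and 5.73%, against 2.29% and 0% in the RSEM-layout table. The expected count of Vegfa-201 was 225 with a posterior SD of 81.7 in replicate 2 and 307 with 83.0 in replicate 1, and that of Vegfa-207 was 166 with 52.4 and 229 with 45.9. The order of these minor forms, and their differences between the libraries, could not be resolved at that precision. The annotated coding transcripts also differ after the last coding base, with 1868 bases in Vegfa-202 and Vegfa-201. Vegfa-207 has 318 bases there, Vegfa-204 has 30 and the others have 3. Among coding transcripts, reads beyond the shorter ends can go only to Vegfa-202 or Vegfa-201. The part of this in the class shares was not tested.

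Noncoding transcripts made part of the Vegfa level. Over all its transcripts, Vegfa-202 held 49.9% of TPM in replicate 2 and 52.4% in replicate 1. Vegfa-209, a retained-intron transcript of 463 bases, held 16.3% in replicate 2 and 11.6% in replicate 1, on 69.8 and 50.2 expected counts. All 5 retained-intron transcripts together held 33.9% of TPM in replicate 2 and 27.6% in replicate 1, but 7.5% and 5.71% of expected counts. TPM divides reads by transcript length, so each read of a short transcript adds more to it. By share of expected counts, Vegfa-202 held 77.0% in replicate 2 and 75.1% in replicate 1. Which of these transcripts was present as a full-length RNA cannot be read from the tables.

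Both Vegfb forms were abundant, in a split that varied little. Vegfb-202, the form without the 101 bases, held 60.0% of TPM in replicate 2 and 58.4% in replicate 1. Vegfb-201, with them, held 39.1% in replicate 2 and 41.5% in replicate 1. The kallisto-layout table gave Vegfb-202 60.8% and 60.2%, so the 2 tables and 2 libraries lay within a few percentage points. Vegfb-202 rested on 1224 counts in replicate 2 and 1312 in replicate 1, with posterior SDs of 48.3 and 51.8.

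Hif1a was split mainly between Hif1a-201 and Hif1a-202, in unequal parts. Hif1a-201 starts at position 73907904 and Hif1a-202 upstream of it at 73901375. Hif1a-202 also lacks the first 42 bases of exon 11 of Hif1a-201, shown in capitals with the 60 bases that follow in the same exon (chr12:73941688-73941789, forward strand).
Hif1a-201: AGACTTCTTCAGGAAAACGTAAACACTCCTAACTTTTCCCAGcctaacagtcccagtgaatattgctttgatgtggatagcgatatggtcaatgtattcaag
Those 42 bases are 14 whole codons, so the frame is kept. Hif1a-201 held 81.0% of Hif1a TPM in replicate 2 and 57.5% in replicate 1, and Hif1a-202 held 16.8% and 32.6%. For Hif1a-202 these were 87.3 counts in replicate 2 and 208 in replicate 1, with posterior SDs of 40.4 and 43.9 from reads shared between the forms. The kallisto-layout table gave a smaller gap, 73.5% and 63.0% for Hif1a-201. In both libraries and both tables Hif1a-201 was the larger. A shorter coding transcript, Hif1a-203, held 0% in replicate 2 and 6.86% in replicate 1, and 5.43% and 6.71% in the kallisto-layout table. Gm49321, a coding gene that overlaps Hif1a on the same strand, had 12 counts in replicate 2 and 14 in replicate 1. The posterior SD of the Hif1a gene count was 0.95 in replicate 2 and 0.77 in replicate 1.

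**Figure D4:**
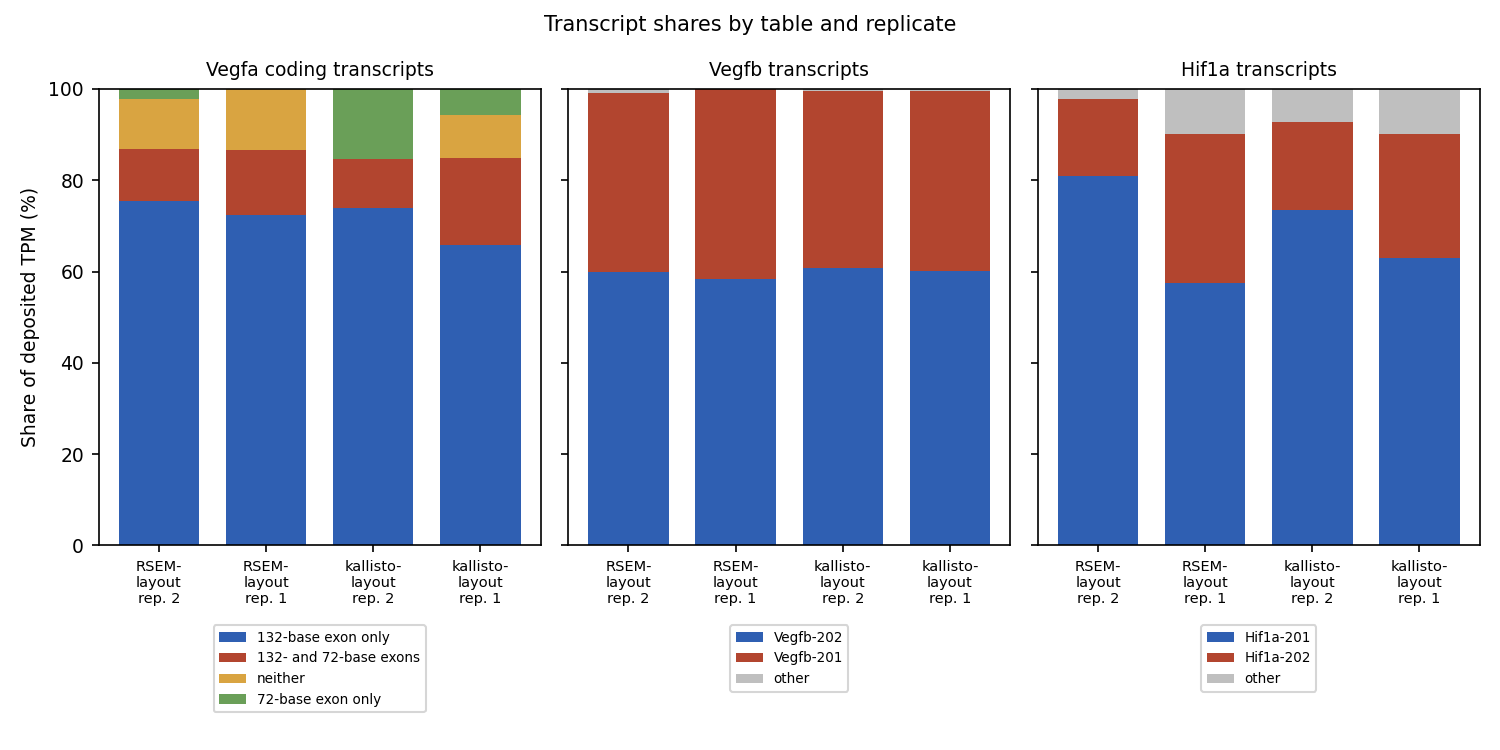
Share of deposited TPM (%) held by the coding classes of Vegfa (left, over protein-coding transcripts), by Vegfb transcripts (middle) and by Hif1a transcripts (right), in 2 tables, with replicate 2 left of replicate 1 in each. The leading class or transcript is the same in all 4 bars of each panel, the Vegfb split stays near 60%, and the minor Vegfa classes differ between tables.

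The remaining genes had 1 main transcript each. The coding transcript of Angpt1 held 94.8% of its TPM in replicate 2 and 90.8% in replicate 1, and a single coding transcript held all of it for Vegfc, Angpt2, Apln and Egln3. One coding transcript also held all of the Epas1 TPM in the RSEM-layout table. In the kallisto-layout table, a noncoding Epas1 transcript of 332 bases took 11.6% in replicate 2 and 14.5% in replicate 1, on 17.9 and 25.2 counts. At the gene level, 0 of the 6 genes at 1 TPM or more differed by 1.5-fold between the 2 quantifications, where 7.06% of all genes with a mean of at least 1 TPM did.

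Between the libraries the abundant genes differed little. The ratio of replicate 2 over replicate 1 comes from expected counts scaled by edgeR's TMM factors and is given as log2 with an exact binomial 95% interval, which covers counting error only. Vegfa had a ratio of -0.07 (-0.14 to 0.01), and 0.03 when scaled by spike-in totals. Vegfb had a ratio of -0.10 (-0.18 to -0.01). Epas1 (-0.17, interval -0.22 to -0.11) lay on the same side, as did Hif1a (-0.15, interval -0.32 to 0.02). Egln3 was on the other side at 0.27 (0.09 to 0.46), and Angpt1 at 0.17 (-0.06 to 0.40). With 1 library a side there is no test of these differences.

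None of the 6 genes averaging 100 counts or more (Vegfa, Vegfb, Epas1, Hif1a, Egln3 and Angpt1) lay 1.5-fold or more apart. Among all genes at that count, 1.22% did (119 of 9741). Of the same 6, 4 were lower in replicate 2, against 49.3% of all genes. The 4 genes with fewer counts spread more widely. Angpt2 (-0.83, interval -1.66 to -0.07) and Vegfc (-0.77, interval -1.52 to -0.07) were at least 1.5-fold lower in replicate 2, as were 13.3% of all genes averaging from 10 to below 100 counts. Apln stood at 0.44 (-0.47 to 1.39) and Pgf at 0.10 (-0.71 to 0.92), and both intervals included 0. The sign of Pgf turned to -0.19 on deposited TPM.

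**Figure D5:**
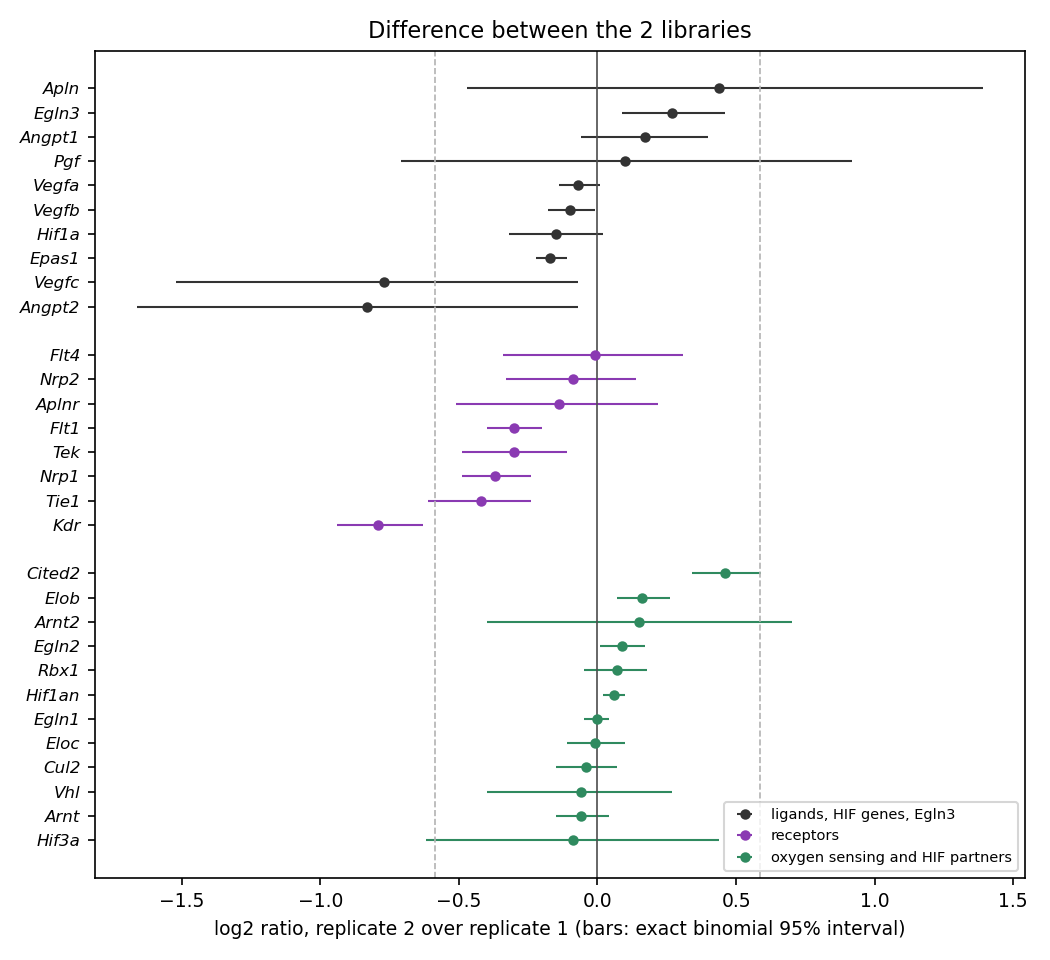
Log2 ratio of replicate 2 over replicate 1 (points) with exact binomial 95% intervals (bars) for the 10 genes (black), the ligand receptors (purple) and the oxygen-sensing genes (green), with dashed lines at 1.5-fold. The abundant ligand and hypoxia factor genes lie near 0, all 8 receptor genes lie below 0 on this scale (6 of 8 with spike-in totals), and the widest bars belong to the genes with few counts.

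Most receptor genes of these ligands were lower in replicate 2. All 8 had ratios below 0, against 49.3% of all genes at their counts, and their median was -0.30, against 0.00 over the 14361 genes averaging 10 counts or more. With spike-in totals as the scale 6 of the 8 were below 0, with Flt4 at 0.08 and a median of -0.21. The intervals of Flt4 (-0.34 to 0.31), Nrp2 (-0.33 to 0.14) and Aplnr (-0.51 to 0.22) included 0. Kdr, the main VEGF-A receptor, had 3.40 TPM in replicate 2 and 6.36 TPM in replicate 1, a log2 ratio of -0.79, and was the one receptor gene past 1.5-fold by scaled counts. On deposited TPM Aplnr was past it too, at -0.70, against -0.14 by scaled counts. Of all 9741 genes averaging 100 counts or more, 119 were past 1.5-fold by scaled counts and 391 on deposited TPM. The median of all genes on deposited TPM was -0.13. Flt1, whose product binds VEGF-B and placental growth factor among other ligands, had 9.04 TPM in replicate 2 and 12.0 TPM in replicate 1. Nrp1, a coreceptor of VEGF-A, had 9.33 and 13.2 TPM, and Tie1, the partner of the angiopoietin receptor, 4.02 and 5.92 TPM. Tek had 3.52 TPM in replicate 2 and 4.71 TPM in replicate 1. Flt4, the VEGF-C receptor, had a ratio of -0.01. Summed, the 8 receptor genes had 33.4 TPM in replicate 2 and 47.6 TPM in replicate 1.

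Markers of several cell types were lower in replicate 2 along with the receptors, where 50% of all genes averaging 10 counts or more were lower. Of 10 endothelial markers 7 had ratios below 0 (median -0.21 on the log2 scale), with a summed level of 60.8 TPM in replicate 2 and 77.8 TPM in replicate 1. Of 5 lymphatic markers 4 were lower (median -0.26, with 5.44 and 6.51 TPM). Smooth muscle and pericyte markers were lower in 5 of 9, close to the share of all genes (median -0.19, with 176 and 211 TPM). Adipocyte markers were lower in 5 of 6 (median -0.38, with 155 and 215 TPM) and satellite cell markers in 4 of 5 (median -0.27, with 20.8 and 26 TPM). Slow fibre markers were lower in 5 of 6 by a smaller median of -0.06, with 1222 TPM in replicate 2 and 1395 TPM in replicate 1. Erythroid markers were lower in 3 of 5 (median -0.21) and leukocyte markers in 4 of 7 (median -0.05). Fibroblast markers were lower in 1 of 7 (median 0.19) and fast fibre markers in 0 of 7 (median 0.10, and -0.04 on deposited TPM). The summed TPM carry the shift of -0.13 that the median of all genes has on that scale. On kallisto-layout counts the satellite cell median was -0.02, and those of endothelium (-0.18) and adipocytes (-0.37) changed little. Over the 3 lymphatic markers averaging 100 counts or more, the median was -0.01 by scaled counts. With spike-in totals as the scale the median of all genes was 0.092, larger in size than the slow fibre median of -0.06. Tie1 and Flt4 stand both among the receptors and among these markers. The part of these cells in the values of Kdr, Angpt2, Vegfc and Epas1 was not tested. In a bulk sample, fewer cells of a type and less RNA per cell cannot be told apart.

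Genes of the wider pathway went both ways between the libraries, as all genes did. Of all genes averaging 10 counts or more, 50% were lower in replicate 2, and 10964 of all 55536 genes reached 1 TPM in both libraries. Of 12 oxygen-sensing and partner genes, 6 were lower and 6 higher in replicate 2, and their median was 0.03 on the log2 scale. Of 24 known targets of the hypoxia factors, 10 were lower and 14 higher, with a median of 0.01, and 23 reached 1 TPM in both libraries. The highest were Ldha, lactate dehydrogenase A (1277 TPM on average), Pgk1, a glycolytic kinase (401 TPM), and Pfkfb3, which drives glycolytic flux (164 TPM, with 137 TPM in replicate 2 and 191 TPM in replicate 1). Vegfa, Egln3 and Apln, which are also known targets, were not counted in that list. Of 14 other genes whose products promote or restrain vessel growth, 13 averaged 10 counts or more. Of these, 8 were lower and 5 higher, with a median of -0.04. Esm1, an endothelial tip cell gene, had 3 counts in replicate 2 and 11 in replicate 1 and was left out. Ccbe1, whose product is needed to process VEGF-C, was the one past 1.5-fold among those averaging 100 counts or more, with 1.06 TPM in replicate 2 and 0.47 TPM in replicate 1. Angptl4, a lipase inhibitor also induced by hypoxia, was past it in the other direction on fewer counts (54 in replicate 2 and 107 in replicate 1), with a log2 ratio of -0.93. These medians move with the scaling. On deposited TPM they were -0.08 for oxygen sensing, -0.13 for targets and -0.22 for the other vessel growth genes. The median of all genes on that scale was -0.13.

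Promoter windows of 7 of the 10 genes were found in the RefSeq table (GRCm38.p6, the same assembly as mm10), with 9 windows of 250 bases before a start site. The core letters that hypoxia factors bind, ACGTG and GCGTG, were searched on both strands. Either was present in 5 of the 9 windows, in 5 genes, and ACGTG in those of 3 genes, namely Hif1a, Egln3 and a Vegfa window at chr17:46025164-46025413, which lies inside the gene before an internal start. The other Vegfa window, at chr17:46032378-46032627 before the outer start of the gene, held neither. Of 32817 windows of this length in the table, 16.6% held ACGTG, 28.1% held GCGTG and 38.6% held either. The windows of Hif1a (chr12:73907617-73907866, forward strand) and Egln3 (chr12:54203875-54204124, reverse strand) are shown because these genes encode a subunit of the factor and a hydroxylase that acts on it. Capitals mark the matches.
Hif1a: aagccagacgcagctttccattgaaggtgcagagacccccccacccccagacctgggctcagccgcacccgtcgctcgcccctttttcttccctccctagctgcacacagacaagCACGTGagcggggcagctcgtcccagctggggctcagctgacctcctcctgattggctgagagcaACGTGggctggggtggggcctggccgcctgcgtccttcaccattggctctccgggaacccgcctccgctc
Egln3: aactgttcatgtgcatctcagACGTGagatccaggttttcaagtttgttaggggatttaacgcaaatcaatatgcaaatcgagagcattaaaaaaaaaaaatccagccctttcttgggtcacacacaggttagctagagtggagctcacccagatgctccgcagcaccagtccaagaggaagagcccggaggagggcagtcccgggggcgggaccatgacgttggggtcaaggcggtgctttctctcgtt
Hif1a has 3 matches, of which a pair overlap as the palindrome CACGTG, and Egln3 has 1. A match of these letters does not show a bound site, and the tables hold no binding data.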

How the data were processed

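Total RNA libraries were quantified by the submitters against mm10 with the GENCODE M21 annotation, per the README deposited with the tables, and the sources used here name no aligner or version. The deposited gene and transcript tables in RSEM layout hold expected counts, TPM and a posterior SD of the count (a score of how reads were divided). A deposited transcript table in kallisto layout holds estimated counts and TPM. Library totals and the names of annotated genes were used as in the tables, and 86 genes had no entry in the kallisto-layout table.

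Levels and transcript shares are deposited TPM. Ratios of replicate 2 over replicate 1 were taken after rounding expected counts to whole numbers, with TMM factors (edgeR 4.0.16) from genes averaging 10 counts or more, a prior of 0.5 counts and exact binomial 95% intervals. Reads are not independent molecules. The 26345 rows that are not annotated genes, 96 of them ERCC spike-ins (0.474% of counts in all in replicate 2 and 0.527% in replicate 1), were left out of library sizes. Comparison of quantifications used a pseudocount of 0.1 TPM. Both libraries form 1 group, so no test was made. The ratio step was tested on simulated data.

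The 10 genes and all lists were chosen with earlier results of these data known. Named genes are the 10 genes, per list the 3 of highest TPM and those at 100 counts or more past 1.5-fold, and transcripts with at least 10% of a gene's TPM. Other genes and minor transcripts of the report (such as Arnt, Vhl, Egln2, Tek, Flt4, Nrp2, Aplnr, Myh4, Angptl4, Esm1, Vegfa-201 and Vegfa-207) were named after their values were seen. Alternatives used DESeq2 1.42.0 size factors, totals, spike-ins, deposited TPM, TPM over nuclear protein-coding genes, other count minimums and priors, the kallisto-layout table and single libraries. Software was Python 3.11.15 with matplotlib 3.10.9, scipy 1.17.1, pandas 2.3.3 and numpy 2.4.6, and R 4.3.3.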

Additional observations from a re-analysis of the deposited data

How the results depend on the processing

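No paired analysis was possible because the series holds 1 group. Of the log2 ratios of the 10 genes, those of Vegfa (-0.13 to 0.03) and Pgf (-0.19 to 0.20) changed sign among the alternatives, and that of Angpt1 ranged over 0.00 to 0.26. The ratios of Vegfb, Vegfc, Angpt2, Apln, Hif1a, Epas1 and Egln3 kept their sign in all of them. TPM over nuclear protein-coding genes raised every level (Pgf to 1.68 and Vegfc to 1.35), and 7 of the 10 genes in place of 6 then reached 1 TPM in both libraries. Of the 6 genes averaging 100 counts or more, 0 were past 1.5-fold. At a count minimum of 10, 2 of the 10 genes were (Vegfc and Angpt2). Over all genes the count of 119 of 9741 became 391 on deposited TPM. It was 1289 of 14361 at a count minimum of 10 and 10 at a count minimum of 1000. In the kallisto-layout table Vegfa over Vegfb was 0.674 in place of 0.588, Epas1 over Hif1a 8.51 in place of 7.49, the Vegfa-202 share 45.9% in place of 51.2% and the Vegfb-202 share 60.5% in place of 59.2%. By share of expected counts, chosen after seeing the data, Vegfa-202 held 76.0% and Vegfb-202 56.8%. On deposited TPM the list medians were -0.45 for receptors (-0.30 before) and -0.08 for oxygen sensing (0.03). They were -0.13 for hypoxia factor targets (0.01) and -0.22 for other vessel growth genes (-0.04), and the median of all genes was -0.13. Taken alone, replicates 2 and 1 gave 0.561 to 0.614 for Vegfa over Vegfb, 6.37 to 12.7 for Angpt1 over Angpt2, 7.29 to 7.68 for Epas1 over Hif1a, 49.9% to 52.4% for Vegfa-202, 58.4% to 60.0% for Vegfb-202 and 57.5% to 81.0% for Hif1a-201. Depth limits Vegfc, Pgf, Angpt2 and Apln, which had 19 to 48 counts per library. Where a value moved, the cause was not tested.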
